A study of Mus musculus with 18 samples.

Results

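The RNA that differed between stimulated and resting mouse T cells in the presence of actinomycin D was examined gene by gene in 4 RNA-seq libraries, arranged as 2 matched pairs. A gene entered when its mean normalised read count over these 4 libraries was at least 50, which 10875 of the 43432 genes in the table reached. Of the 43432 genes, 21869 had a value above 0 in at least 1 of the 4 libraries. At the edge of this minimum, Gm10501, Lpar5 and Stac3 lay just inside with means of 50.07, 50.15 and 50.17, and Amigo2, Adam22 and E130311K13Rik lay just outside with means of 49.99, 49.89 and 49.87.

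The series held 18 libraries, 10 from GCLiPP, a method that maps the stretches of RNA covered by proteins, and 8 from RNA-seq. The RNA-seq libraries were stimulated and resting Th2 cells with actinomycin D, stimulated and resting CD8 cells with actinomycin D, and the same cells without the drug. Th2 cells are CD4 T cells cultured here with IL-4, IL-2 and an antibody to interferon-gamma, and CD8 cells are cytotoxic T cells cultured here with IL-12 and IL-2. All cells came from C57BL/6 mice, were activated on antibody-coated plates (against CD3 and CD28) and cultured, for 5 days in all per the labels, with a later move to uncoated dishes with IL-2 per the methods, and were moved 4 h before harvest either into medium with PMA/Ionomycin (stimulated) or into fresh medium alone (resting). PMA and ionomycin are a pair of compounds that bypass the T cell receptor by activating protein kinase C and raising intracellular calcium. Per the methods, actinomycin D was added once the 4 h with PMA and ionomycin had passed, and cells from that treatment went to RNA-seq. Which of the drug times was sequenced, and how the resting cells were timed, is not stated in the sources used here. The labels of all 18 samples, the RNA-seq libraries included, give irradiation with ultraviolet light at 254 nm (8000 mJ), which crosslinks proteins to RNA. Cells were pooled from several mice per the methods, and each condition had 1 library.

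Actinomycin D inserts into DNA and blocks RNA polymerases, so that no new messenger RNA is made and each transcript declines at its own pace. A difference between stimulated and resting cells that is still seen under the drug can come from RNA that was already made when the drug was added, or from a difference in how fast that RNA is lost, and a single measurement per condition does not separate these. Many transcripts of the T cell response, including those of cytokines, carry AU-rich elements in the 3′ untranslated region (3′ UTR), to which proteins of the tristetraprolin family (Zfp36, Zfp36l1 and Zfp36l2) bind to speed up decay. Values here are gene read counts that the authors divided by 1 factor per library, so every change is relative to the rest of the library and not per cell. In such bulk libraries, fewer cells of a type and less RNA per cell cannot be told apart.

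The 4 libraries with actinomycin D held 25847119 to 28368770 gene reads, and the 4 without it 24154849 to 31042504. The cell labels were checked on Cd4, with 37162 and 39568 in the stimulated and resting Th2 libraries against 33.8 and 30.5 in the CD8 libraries, and on Cd8a, with 2164 and 2401 in Th2 against 15378 and 15750 in CD8. Cd8a was thus not absent from the Th2 libraries, and Il1rl1, a receptor listed as a Th2 marker, was higher in CD8 (3072 stimulated and 2325 resting) than in Th2 (79.9 and 50.6). Of the markers of other cells, the 11 B cell genes summed to 15859 and 17458 in stimulated and resting Th2 and to 8110 and 8375 in stimulated and resting CD8, most of it Ighm, while erythroid genes summed to no more than 16.7 in any of the 4 libraries. None of the B cell, myeloid or NK cell markers tested was called between stimulated and resting cells. The share of counts in 75 cytosolic ribosomal protein genes was lower after stimulation in both pairs, 2.87% in stimulated against 3.80% in resting Th2 cells and 2.98% in stimulated against 3.39% in resting CD8 cells. The part of this shift in the values below was not tested, apart from a rescaling on those genes.

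With actinomycin D present, 68 genes were at least 2-fold higher in stimulated than in resting cells in both pairs (0.625% of those tested) and 2 were at least 2-fold lower in both (0.0184%). Plk3, Hbegf, Il10, Pim3, Rgs16, Il24, Cd40lg, Csf2, Epha2 and Il13 were among those more than 4-fold higher in both pairs, and together they stand for kinases, a growth factor, cytokines, a T cell helper ligand, a brake on G protein signalling and a receptor at the cell surface. limma, fitted across all genes with the cell type as a block, called 1435 genes higher (13.2%) and 1069 lower (9.83%) at a Benjamini-Hochberg adjusted p under 0.05, and all 68 were among the genes called higher. That fit has 1 residual degree of freedom per gene and took nearly all of its spread from the trend over all genes, so its small p-values do not measure each gene's own variation. A fit of all 8 libraries called 23 genes higher (0.211%) and 1 lower (0.0092%), 22 of the 68 among them. Its spread also holds the difference between the Th2 and CD8 changes without the drug. Its p-values therefore do not measure the agreement of the pairs with the drug alone. Gadd45a changed by 1.84 and 1.85 with the drug but by 3.8 and -1.41 without it, and its 8-library adjusted p was 0.412 (limma). Counts of calls per gene list below are from the 4-library fit. The 8-library fit called 6 listed cytokines, 2 PIM and polo-like stress kinases and 1 AU-rich element binding protein, all higher. It called no listed chemokine, activation receptor, MAP kinase phosphatase or sprouty-type inhibitor, immediate-early factor or cell cycle gene. The same held for the NF-kB, quiescence, glycolysis and ribosomal protein lists. The spread between the pairs was small: the Th2 and CD8 changes of a gene had the same sign for 75.7% of all genes, and a gene's pairs lay a median of 0.088 on the log2 scale to either side of their mean. The plot of both pairs shows the 68 genes apart from the bulk of the genes.

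**Figure D1:**
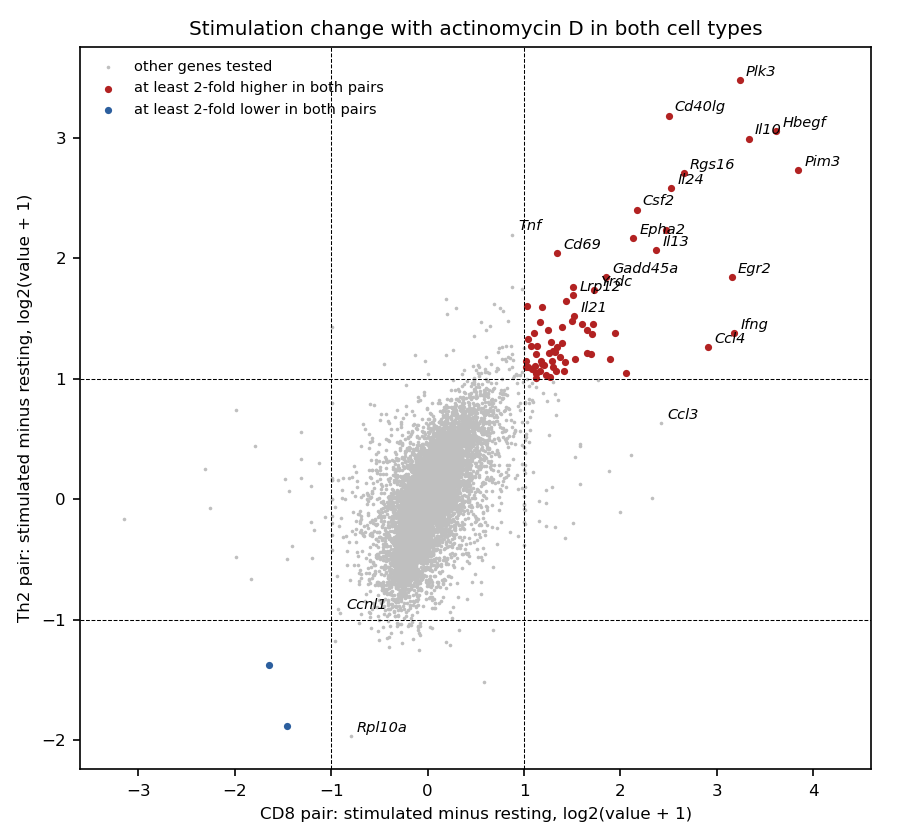
Change between stimulated and resting cells with actinomycin D, on the log2(value + 1) scale, for 10875 genes, with the Th2 pair on the vertical axis and the CD8 pair on the horizontal axis. Dashed lines mark 2-fold, red points are the 68 genes at least 2-fold higher in both pairs, and the 2 blue points are at least 2-fold lower in both, far fewer than on the higher side.

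Plk3, a polo-like kinase of stress responses, had a normalised read count of 841 in stimulated against 74.5 in resting Th2 cells, and 463 in stimulated against 48.2 in resting CD8 cells. Its changes of 3.48 and 3.24 (log2, Th2 and CD8) were nearly equal, and the adjusted p in the 8-library limma fit was 0.00447. Pim3, a serine/threonine kinase that promotes survival and growth and that the study followed up, had 1486 in stimulated against 223 in resting Th2 cells and 763 in stimulated against 52.2 in resting CD8 cells. Both stimulated libraries thus lay above both resting ones, with changes of 2.73 and 3.84 and an 8-library adjusted p of 0.0155 in limma. Plk2, the closest relative of Plk3, rose less, to 342 in stimulated against 124 in resting Th2 cells and to 280 in stimulated against 91.5 in resting CD8 cells (8-library adjusted p = 0.0526, limma). Pim1 rose by 0.57 and 1.06, short of 2-fold in Th2 cells, and Pim2 by 0.53 and 0.27. Of the 7 PIM and polo-like stress kinases listed, all were tested and 3 reached 2-fold in both pairs. limma called 6 of them higher and none lower, against 13.2% and 9.83% of all genes.

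Of the 28 cytokine genes listed, 22 were tested and 10 were at least 2-fold higher in both pairs, against 0.625% of all genes. limma called 16 of them higher and 1 lower, against 13.2% and 9.83% of all genes. The median change over the 22 was 1.41 (Th2) and 0.98 (CD8), and that over all genes tested 0.03 and -0.01. Il10, the suppressive cytokine, had 21697 in stimulated against 2727 in resting Th2 cells, and 4187 in stimulated against 415 in resting CD8 cells. Il24, a member of the Il10 family encoded beside it on chromosome 1, had 20693 in stimulated against 3459 in resting Th2 cells, and 1897 in stimulated against 329 in resting CD8 cells. These were among the most abundant transcripts of the group, and their adjusted p-values in the 8-library limma fit were 0.0284 and 0.00241. Il13, a type 2 cytokine of the Th2 lineage, had 8678 in stimulated against 2066 in resting Th2 cells, and 39.7 in stimulated against 6.9 in resting CD8 cells. Csf2, which encodes the growth factor GM-CSF, had 423 in stimulated against 79.1 in resting Th2 cells and 145 in stimulated against 31.5 in resting CD8 cells. Csf2 therefore rose by a similar factor in both cell types although its levels differed. Il13 was higher in stimulated cells in both pairs, but it reached the minimum through the Th2 libraries. Its CD8 change rests on few reads, with 6.9 in resting cells, so the size of its change cannot be compared between cell types. The 8-library adjusted p in limma was 0.0155 for Il13 and for Csf2.

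Ifng, the interferon made mainly by CD8 cells, had 124 in stimulated against 46.9 in resting Th2 cells, and 31214 in stimulated against 3445 in resting CD8 cells. Its change was 1.38 in the pair with little of the transcript and 3.18 in the pair with much of it, and it was not called in the 8-library limma fit (adjusted p = 0.161). Il21, a cytokine that acts on B cells and CD8 cells, was the opposite in level, with 7405 in stimulated against 2586 in resting Th2 cells and 55.6 in stimulated against 18.7 in resting CD8 cells, and its changes were 1.52 in both. Osm, encoding oncostatin M of the interleukin 6 family, had 1132 in stimulated against 437 in resting Th2 cells, and 1391 in stimulated against 427 in resting CD8 cells. In the 8-library limma fit the adjusted p was 0.0349 for Il21 and 0.225 for Osm. Tnf fell short of the 2-fold rule in 1 pair, with 1310 in stimulated against 285 in resting Th2 cells and 1233 in stimulated against 669 in resting CD8 cells. Il4 did likewise, with 1.58 in Th2 cells, where it stood at 3195 in stimulated against 1065 in resting cells, and 0.75 in CD8 cells, where it stood at 18.9 in stimulated against 10.8 in resting cells.

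The TNF family ligands Cd40lg, Tnfsf9 and Tnfsf14, which signal to other immune cells by contact, were part of the group. Cd40lg, the CD4 cell signal to B cells, had 1345 in stimulated against 147 in resting Th2 cells, and 127 in stimulated against 21.7 in resting CD8 cells. Tnfsf9, the ligand of 4-1BB, had 180 in stimulated against 52.4 in resting Th2 cells, and 139 in stimulated against 48.2 in resting CD8 cells. Tnfsf14, also known as LIGHT, had 198 in stimulated against 75.4 in resting Th2 cells, and 40.7 in stimulated against 9.8 in resting CD8 cells. All 3 were higher in each stimulated library than in its own resting one, and their adjusted p-values in the 8-library limma fit were 0.0644 for Cd40lg, 0.0456 for Tnfsf9 and 0.0644 for Tnfsf14. Of 6 chemokine genes tested, 3 were called higher, against 13.2% of all genes. Ccl4 alone reached 2-fold in both pairs (8-library adjusted p = 0.218, limma). It had 202 in stimulated against 83.7 in resting Th2 cells and 192 in stimulated against 24.6 in resting CD8 cells. Ccl3, its neighbour in the genome and in function, changed by 0.63 in Th2 and 2.42 in CD8 cells.

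Growth factors and surface receptors were a further part. Hbegf, a ligand of the EGF receptor, had 473 in stimulated against 56.1 in resting Th2 cells and 591 in stimulated against 47.2 in resting CD8 cells, with changes of 3.05 and 3.62. Pdgfb, a chain of platelet-derived growth factor, had 130 in stimulated against 56.1 in resting Th2 cells, and 75.5 in stimulated against 22.6 in resting CD8 cells. Epha2, an ephrin receptor, had 161 in stimulated against 34.9 in resting Th2 cells, and 72.5 in stimulated against 15.7 in resting CD8 cells. In each of these genes both pairs moved together, and the 8-library adjusted p in limma was 0.00447 for Hbegf, 0.227 for Pdgfb and 0.177 for Epha2. Lrp12, a transmembrane receptor chosen for mention, like Pdgfb and Icam1, after its values were seen, had 529 in stimulated against 163 in resting Th2 cells, and 1112 in stimulated against 389 in resting CD8 cells. Its adjusted p in the 8-library limma fit was 0.0213. Of the 20 activation receptors listed, all were tested, 6 were called higher and 2 lower (against 13.2% and 9.83% of all genes), and Cd69, an early activation marker, alone reached 2-fold in both pairs, with 620 in stimulated against 150 in resting Th2 cells and 611 in stimulated against 240 in resting CD8 cells (8-library adjusted p = 0.0597, limma). Icam1, an adhesion molecule, had 1274 in stimulated against 597 in resting Th2 cells, and 1771 in stimulated against 719 in resting CD8 cells.

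**Figure D2:**
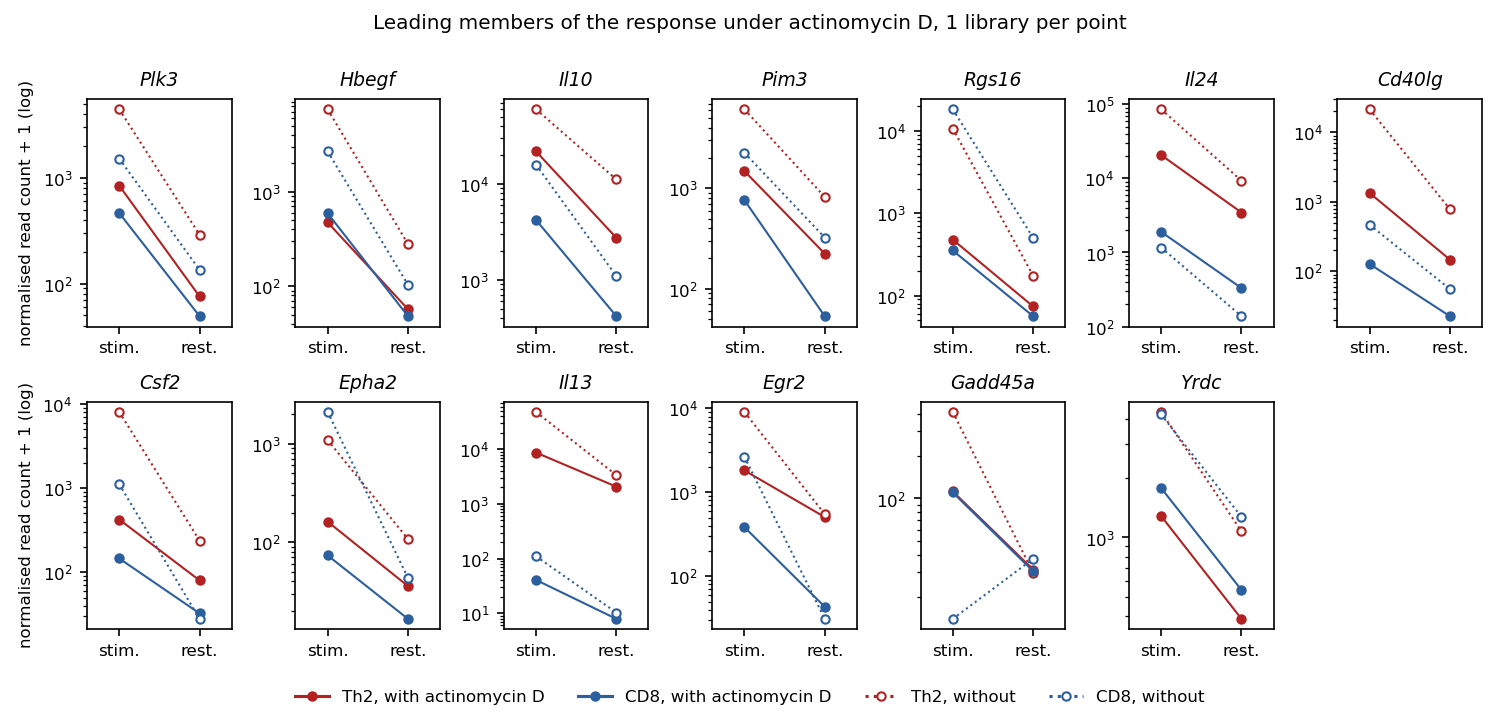
Normalised read count plus 1 (log axes, a scale of its own in each panel) of 13 named genes among those with the largest smaller change of both pairs, in stimulated and resting cells, 1 library per point. Filled points and solid lines are with actinomycin D, open points and dotted lines without, red is Th2 and blue is CD8. Every solid line is higher in stimulated cells, while Gadd45a in CD8 cells without the drug is lower in stimulated cells (a change of -1.41).

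Several inhibitors of signalling were in the group. Rgs16, which shortens G protein signals, had 479 in stimulated against 72.7 in resting Th2 cells and 353 in stimulated against 55.1 in resting CD8 cells. Dusp1, a phosphatase of MAP kinases, had 181 in stimulated against 77.3 in resting Th2 cells, and 95.4 in stimulated against 39.4 in resting CD8 cells. Errfi1, an inhibitor of the EGF receptor, had 233 in stimulated against 102 in resting Th2 cells, and 459 in stimulated against 176 in resting CD8 cells. Sla, an adaptor that dampens T cell receptor signals, had 4155 in stimulated against 1332 in resting Th2 cells, and 3575 in stimulated against 1319 in resting CD8 cells. All 4 were higher in both stimulated libraries than in either resting library, and their 8-library adjusted p-values in limma were 0.0155 for Rgs16, 0.0852 for Dusp1, 0.0526 for Errfi1 and 0.184 for Sla, the last of which was also chosen after its values were seen. Of 16 MAP kinase phosphatases and sprouty-type inhibitors tested, 7 were called higher and none lower, against 13.2% and 9.83% of all genes. Their median change was 0.16 in Th2 and 0.39 in CD8 cells. Dusp2 was not called and had 74.2 in stimulated against 84.6 in resting Th2 cells, and 84.4 in stimulated against 65.9 in resting CD8 cells.

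Of 23 immediate-early transcription factor genes tested, 9 were called higher and 1 lower, against 13.2% and 9.83% of all genes. Egr2 and Maff reached 2-fold in both pairs. Egr2, a zinc finger factor that restrains T cell activation, had 1821 in stimulated against 507 in resting Th2 cells, and 384 in stimulated against 42.3 in resting CD8 cells. Maff, a small Maf protein, had 207 in stimulated against 93.8 in resting Th2 cells, and 209 in stimulated against 76.8 in resting CD8 cells. Their 8-library adjusted p-values in limma were 0.175 for Egr2 and 0.0625 for Maff. Outside that list, Id2, a helix-loop-helix inhibitor used by effector T cells, and Ets2 and Cited2, both chosen after their values were seen, were in the group as well. Egr1 was close, with changes of 1.26 and 0.77, against 5.34 and 5.99 without the drug. Its resting counts were 1778 in Th2 and 1956 in CD8 cells with the drug, against 209 and 76.7 without it. Nr4a1, a nuclear receptor induced by T cell receptor signals, had 297 in stimulated against 324 in resting Th2 cells and 228 in stimulated against 234 in resting CD8 cells, and was not called. Junb was the gene called lower, with 604 in stimulated against 966 in resting Th2 cells, but its 406 in stimulated against 403 in resting CD8 cells were level.

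Regulators of AU-rich transcripts were represented by Zfp36l1 and Zfp36l2, proteins of the tristetraprolin family. Zfp36l2 had 5632 in stimulated against 2515 in resting Th2 cells, and 2617 in stimulated against 905 in resting CD8 cells. Zfp36l1 had 2533 in stimulated against 1228 in resting Th2 cells, and 1004 in stimulated against 462 in resting CD8 cells. The 8-library adjusted p in limma was 0.0284 for Zfp36l2 and 0.0599 for Zfp36l1. Zfp36, tristetraprolin itself, rose by 0.78 and 0.94. Of the 13 AU-rich element binding protein genes tested, 5 were called higher and none lower, against 13.2% and 9.83% of all genes. Zfp36l1 and Zfp36l2 alone reached 2-fold in both pairs. Exons of Zfp36l1 overlap an expressed transcript on the other strand over 55.9% of their length, and those of Ccne2, Yrdc, Tnfsf9, Pptc7, Atg4d, St3gal4, Gadd45a and Gm17251 over 14.1 to 35.6%. The sources used here do not say whether counting used the strand, which makes these genes' values uncertain.

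Genes of the cell cycle and of stress were the next group. Cdkn1a, the p21 inhibitor of cyclin-dependent kinases, had 9821 in stimulated against 3716 in resting Th2 cells, and 9322 in stimulated against 2954 in resting CD8 cells. Aurka, a kinase of the mitotic spindle, had 713 in stimulated against 264 in resting Th2 cells, and 1006 in stimulated against 383 in resting CD8 cells. Ccne2, cyclin E2, had 1289 in stimulated against 548 in resting Th2 cells, and 1335 in stimulated against 542 in resting CD8 cells. Cdc6, which loads the replicative helicase, had 984 in stimulated against 481 in resting Th2 cells, and 1388 in stimulated against 593 in resting CD8 cells. These genes thus include both a cell cycle inhibitor and genes that serve DNA replication and mitosis. Of the 30 cell cycle genes listed and tested, 14 were called higher and none lower, against 13.2% and 9.83% of all genes. Ddit4, an inhibitor of mTORC1 that responds to stress, had 2096 in stimulated against 832 in resting Th2 cells, and 2016 in stimulated against 978 in resting CD8 cells. Gadd45a, a DNA damage response gene, had 111 in stimulated against 30.3 in resting Th2 cells, and 109 in stimulated against 29.5 in resting CD8 cells. In the 8-library limma fit Ddit4 was called (adjusted p = 0.0284), while Cdkn1a, Aurka, Ccne2, Cdc6 and Gadd45a were not, at 0.0599, 0.0819, 0.0608, 0.146 and 0.412.

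The other members were spread over many roles and were chosen for mention after their values were seen. They included St3gal4 and St3gal5 (sialyltransferases), B3galt6 and Chsy1 (glycosaminoglycan synthesis) and C1galt1c1 (the chaperone of an O-glycan enzyme), with changes between 1.04 and 1.39. St3gal4 had 2584 in stimulated against 1053 in resting Th2 cells and 2784 in stimulated against 1062 in resting CD8 cells, with an adjusted p in the 8-library limma fit of 0.0161. Yrdc, which modifies transfer RNAs, had 1284 in stimulated against 384 in resting Th2 cells, and 1782 in stimulated against 539 in resting CD8 cells. Gch1 (tetrahydrobiopterin synthesis), Plau and F3 (urokinase and tissue factor), Usp18 (removal of the interferon-induced modifier ISG15), Eef1e1 (a subunit of the multisynthetase complex), Cdk17, Gem, Arc, Relt, Metrnl and Sema4c were also in the group. Of the 68 genes, 67 were protein coding, and Gm17251 was a processed transcript.

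A feature of sequence that played no part in choosing the genes was shared by most of them. The AU-rich heptamer TATTTAT, with U for T in the RNA, a core sequence that proteins of the tristetraprolin family recognise, occurred in the longest annotated 3′ UTR of 55 of the 67 members that have one (82.1%), against 3185 of 10332 genes tested (30.8%). At least 2 copies were found in 36 of the members (53.7%) against 1134 genes (11.0%), and the density was 1.52 copies per kb over the members against 0.29 over all genes tested. The search was on the transcript strand of GENCODE M21 (GRCm38, the mm10 build). Windows of 30 bases around 1 heptamer each, taken 5′ to 3′ along the transcript, are shown for 11 members, among them kinases, cytokines, a ligand, an inhibitor of signalling, an AU-rich element binding protein and an adhesion molecule, with every copy of the heptamer in the window in capitals. For members with a heptamer inside a GCLiPP peak, that copy was chosen, as in Il10, Rgs16, Il24, Csf2, Ifng, Il13, Zfp36l2 and Icam1.
Plk3 (chr4:117128734-117128763, minus strand): ctagggggcatTATTTATggaccactttta
Pim3 (chr15:88865221-88865250, plus strand): ccacggtctctTATTTATggtgtgatcacc
Il10 (chr1:131024385-131024414, plus strand): tctctccgaaaTATTTATtacctctgatac
Cd40lg (chrX:57223668-57223697, plus strand): gttgaactgccTATTTATaaccctaggatc
Rgs16 (chr1:153745326-153745355, plus strand): cactgtgttaaTATTTATTTATtgttaaca
Il24 (chr1:130882231-130882260, minus strand): gtagatttgcaTATTTATtacagccctatt
Csf2 (chr11:54247361-54247390, minus strand): agggaccattaTATTTATTTATaTATTTAT
Ifng (chr10:118445323-118445352, plus strand): aaatctaaaccTATTTATtaatatttaaaa
Il13 (chr11:53631740-53631769, minus strand): cttcttgatctTATTTATtatggttgtgtg
Zfp36l2 (chr17:84184913-84184942, minus strand): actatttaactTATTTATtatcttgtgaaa
Icam1 (chr9:21028314-21028343, plus strand): tcttcttgatgTATTTATtaatttagagtt

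Csf2 carried the most copies, 9 in a 3′ UTR of 317 bases, and its window holds 3 of them, of which a pair overlap. Tmcc2 had 5 copies, Il10, Ifng and Pptc7 had 4 each, and Cdkn1a, Egr2, Ddit4 and Aurka had none. The words that served for comparison were not over-represented. The same letters read backwards on the other strand, ATAAATA, were in 17.9% of the members' 3′ UTRs against 26.4% of all genes tested, the Pumilio motif TGTANATA was in 20.9% against 26.6%, and TATTTAT in the coding sequence was in 4.5% against 5.6%. The shorter pentamer ATTTA, which lies within the heptamer, had 3.50 copies per kb over the members against 1.83 over all genes. The members' 3′ UTRs were not longer, with a median of 935 bases against 1200, and their median A and T content of 56.3% was near the 55.6% of all genes. Within 3′ UTRs of 500 to 1000 bases the heptamer was in 21 of 26 members (80.8%) against 399 of 2025 genes (19.7%), and within those of 1000 to 2000 bases in 21 of 25 (84.0%) against 869 of 2658 (32.7%). A match to these letters is not by itself a site of binding, and no test was run on these shares.

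**Figure D3:**
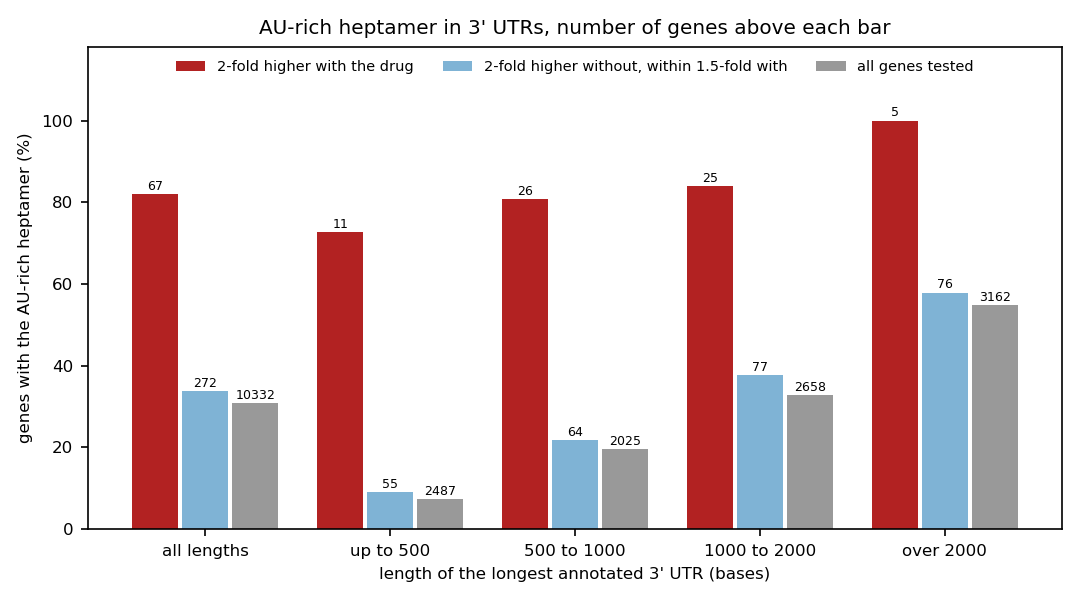
Percent of genes with at least 1 AU-rich heptamer in the longest annotated 3′ UTR, by length of that 3′ UTR, for genes at least 2-fold higher in both pairs with the drug (red), genes at least 2-fold higher in both pairs without it and within 1.5-fold in both with it (blue) and all genes tested (grey). The number of genes stands above each bar, and the red bars are the highest in each length class, at 72.7 to 100% against 7.4 to 54.8% for all genes.

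Across all genes, those with a heptamer had a higher median change than those without in both pairs with the drug, and the median grew with the number of copies in Th2 cells but not beyond 2 copies in CD8 cells. The median change of genes with no heptamer was -0.07 in Th2 and -0.05 in CD8 cells, that of genes with 1 copy 0.18 and 0.10, with 2 copies 0.27 and 0.14, and with 3 or more 0.31 and 0.14. Genes called higher made up 7.3%, 24.1%, 32.6% and 38.1% of these classes, and genes called lower 13.4%, 2.7%, 1.3% and 1.4%. The length of the 3′ UTR moved with the number of copies, since its median was 878 bases in genes with none and 3265 in genes with 3 or more. Among 3′ UTRs of 1000 to 2000 bases, 30.1% of the genes with a heptamer were called higher against 9.0% of those without, and 3.2% were called lower against 9.5%. Without actinomycin D the medians were 0.02 in Th2 and 0.03 in CD8 cells with no copy, 0.03 and 0.01 with 1, -0.01 and -0.03 with 2, and 0.13 and 0.10 with 3 or more. Genes share libraries and are not replicates, so these are descriptions.

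GCLiPP peaks, 70-base stretches of protein cover that the authors called from all mouse experiments pooled, were found in 46 of the 68 members (67.6%) against 59.3% of all genes tested. Heptamers of genes with peaks lay inside a peak in 30 of 86 cases among the members (34.9%), against 335 of 3276 cases among all genes tested (10.2%). Genes at least 2-fold higher in both pairs without the drug and within 1.5-fold with it lay between, at 29 of 120 cases (24.2%). Of these genes, 76.9% had a peak. Genes with any peak had a median of 4.5 peaks among the members against 2 among all genes tested. Each peak carries only a score for the pool, so stimulated and resting cells cannot be compared there. The part of transcript abundance, number of peaks and 3′ UTR length in these shares was not tested.

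The same genes were then set beside the stimulation change without the drug, for which the 4 libraries are separate from those above. Without actinomycin D, 444 of the 10875 genes were at least 2-fold higher in both pairs (4.08%) and 367 at least 2-fold lower (3.37%). Of the 444, 30 (6.76%) were also 2-fold higher in both pairs with the drug and 286 were within 1.5-fold of resting cells in both. These 30 were 44.1% of the 68 members and held the cytokines and ligands Il10, Il13, Il21, Il24, Ifng, Csf2, Ccl4, Cd40lg, Tnfsf9, Tnfsf14, Hbegf and Pdgfb, and Plk3, Pim3, Rgs16, Egr2, Maff, Cd69, Icam1, Epha2 and Zfp36l1. A further 13 members were 2-fold higher in 1 pair without the drug, and 25 were under 2-fold in both pairs without it, among them Lrp12, Zfp36l2, Aurka, Ccne2, Cdc6, Ddit4, Plk2, Dusp1 and St3gal4. The difference between the changes with and without the drug was tested in limma over all 8 libraries, with 1306 genes positive (12%) and 1341 negative (12.3%) at an adjusted p under 0.05. Among the 68 members, 15 differences were negative and 14 positive. Members were chosen by their change with the drug and grouped here by their change without it. Both enter the difference, so these counts and the sign within a group are not separate results. When any of the 4 libraries with the drug is left out, the spread of this fit comes only from the pairs without the drug. Such a fit cannot show how far each library with the drug decides the difference. Cd4, at 33.8 in stimulated against 30.5 in resting CD8 cells with the drug, stood at 281 in stimulated against 25.9 in resting CD8 cells without it, and the part of this in the CD8 changes without the drug was not tested.

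**Figure D4:**
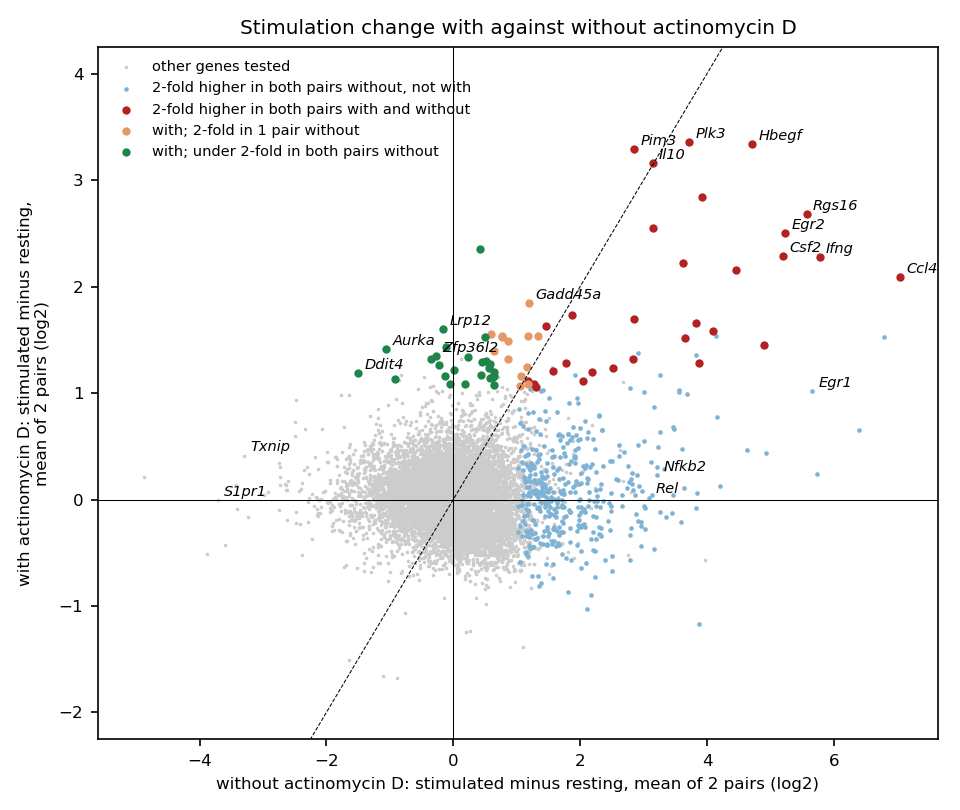
Mean of both pairs' stimulation change (log2) with actinomycin D on the vertical axis and without it on the horizontal axis, for 10875 genes, with the dashed line at equal change. The 30 red points are 2-fold higher in both pairs with and without the drug and mostly lie below the line, the 13 orange points are 2-fold in 1 pair without, the 25 green points (under 2-fold in both pairs without) lie above the line as their choice requires, and most blue points, 2-fold higher only without, lie near 0 on the vertical axis.

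The genes with a negative difference included cytokines and chemokines. Ccl4 changed by 1.26 in Th2 and 2.91 in CD8 cells with the drug, against 5.83 and 8.25 without it (difference -4.95, adjusted p = 0.016, limma interaction). Ifng changed by 1.38 and 3.18 with the drug against 5.09 and 6.46 without (difference -3.50, adjusted p = 0.019), and Csf2 by 2.40 and 2.17 against 5.08 and 5.32 (difference -2.91, adjusted p = 0.00425). Resting levels enter these changes. Those of Ifng were higher with the drug than without it, at 46.9 against 39.7 in Th2 and 3445 against 993 in CD8 cells. Those of Ccl4 were lower in both cell types, and those of Csf2 were lower in Th2 but not in CD8 cells. In Ccl4, Ifng and Csf2 the change between stimulated and resting cells was thus smaller under the drug in both cell types. Rgs16 showed the same, with 2.70 and 2.66 with the drug against 5.95 and 5.20 without (difference -2.89, adjusted p = 0.00615). By contrast, the changes of Plk3, Pim3 and Il10 did not pass the test of a difference. The difference with minus without was -0.36 for Plk3 (95% interval -0.95 to 0.24), 0.43 for Pim3 (-0.45 to 1.31) and 0.02 for Il10 (-1.05 to 1.09). Pim3 changed by 2.90 and 2.81 without the drug, and Il10 by 2.43 and 3.86.

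The genes with a positive difference were level or lower in stimulated cells without the drug, or rose there by less than 2-fold. Ddit4 had 2083 in stimulated against 6098 in resting Th2 cells and 3320 in stimulated against 9030 in resting CD8 cells without the drug, while its changes were 1.33 and 1.04 with the drug against -1.55 and -1.44 without it (difference 2.68, adjusted p = 0.0028). Aurka changed by 1.43 and 1.39 with the drug against -1.49 and -0.62 without it (difference 2.46, adjusted p = 0.00875), and Cdc6 by 1.03 and 1.23 with it against -1.37 and -0.46 without (difference 2.04, adjusted p = 0.0127). Lrp12 was level without the drug (572 in stimulated against 609 in resting Th2 cells and 608 in stimulated against 716 in resting CD8 cells), and its difference was 1.77 (adjusted p = 0.00762). Zfp36l2 changed by -0.17 and -0.38 without it (difference 1.62, adjusted p = 0.00791). The levels with and without the drug are given next for each class, as a description, since the choice of the classes fixes whether stimulated or resting cells have the higher ratio. Over the 25 genes under 2-fold without the drug, the median level with the drug against the level without it was -0.19 (log2) in stimulated and -1.58 in resting Th2 cells, and -0.51 in stimulated and -1.76 in resting CD8 cells. Over the 30 genes that rose with and without the drug, it was -2.49 in stimulated and -1.52 in resting Th2 cells and -2.05 in stimulated and -1.32 in resting CD8 cells. Over the 286 genes whose rise was seen without the drug and not with it, the level was -1.93 in stimulated and -0.13 in resting Th2 cells and -1.74 in stimulated and -0.09 in resting CD8 cells. Over all genes tested these medians lay between 0.01 and 0.05, and they are relative to the rest of each library.

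Of 16 genes for NF-kB subunits and their inhibitors, 14 were at least 2-fold higher in both pairs without the drug and none with it, and the list's median change was 0.10 in Th2 and 0.04 in CD8 cells with the drug against 2.26 and 2.57 without. With the drug 4 of the 16 were called higher and 1 lower, against 13.2% and 9.83% of all genes. Those called higher were Nfkbia (0.68 and 1.06), Nfkbid, Tnfaip3 and Birc3, and Rela was called lower. Rel, the NF-kB subunit of activated lymphocytes, had 480 in stimulated against 444 in resting Th2 cells and 337 in stimulated against 354 in resting CD8 cells with the drug, while without it the values were 2634 in stimulated against 353 in resting Th2 cells and 5181 in stimulated against 536 in resting CD8 cells. Nfkb2 had 1767 in stimulated against 1586 in resting Th2 cells and 1422 in stimulated against 1151 in resting CD8 cells with the drug, and was not called. The difference between the changes with and without the drug was -3.06 for Rel (adjusted p = 0.00282, limma) and -2.99 for Nfkb2 (adjusted p = 0.00191). Nfkbid, an atypical inhibitor, lay just outside the 2-fold rule with changes of 0.995 and 1.027, as did Notch1 with 0.965 and 1.079. Of the 22 cytokine genes tested, 17 were 2-fold higher in both pairs without the drug, against 10 with it.

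Of 17 genes of quiescence and lymph node homing tested, 6 were at least 2-fold lower in both pairs without actinomycin D. A further 2 were at least 2-fold higher there, against 3.37% lower and 4.08% higher of all genes. None was 2-fold in either direction in both pairs with the drug. There 4 were called higher and none lower, against 13.2% and 9.83% of all genes. Txnip, which restrains glucose uptake, had 4664 in stimulated against 3655 in resting Th2 cells and 3755 in stimulated against 2708 in resting CD8 cells with the drug, but without it 997 in stimulated against 9251 in resting Th2 cells and 868 in stimulated against 9081 in resting CD8 cells. A transcript on the other strand overlaps 19.4% of its exon length. S1pr1, the receptor that guides T cells out of lymph nodes, had 405 in stimulated against 392 in resting Th2 cells and 738 in stimulated against 769 in resting CD8 cells with the drug, and was not called. Without the drug its levels were 142 in stimulated against 2052 in resting Th2 cells and 274 in stimulated against 3288 in resting CD8 cells. The differences were 3.71 for both genes (adjusted p = 0.00141 and 0.00191, limma). Of the 30 cell cycle genes, 15 had a positive difference and 1 a negative one, against 12% and 12.3% of all genes. Mki67, a marker of dividing cells, changed by 0.57 and 0.14 with the drug against -1.54 and -1.33 without it, and Plk1, a mitotic kinase, by 0.44 and 0.45 against -1.34 and -1.02.

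**Figure D5:**
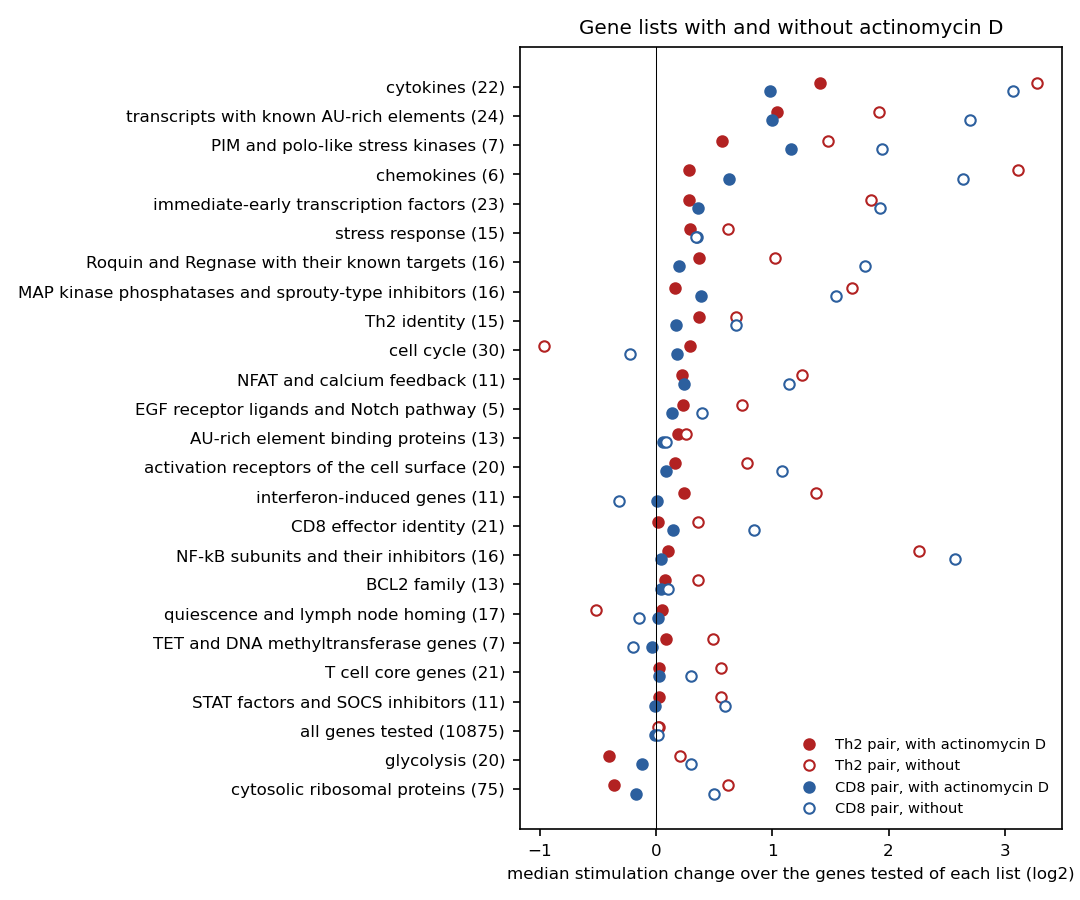
Median stimulation change (log2) over the genes tested of each list, whose number stands in parentheses, with filled points for the libraries with actinomycin D and open points for those without, red for the Th2 pair and blue for the CD8 pair. Cytokines lie at 1.41 (Th2) and 0.98 (CD8) with the drug, NF-kB genes lie near 0 with it and above 2 without, and ribosomal protein genes lie below 0 with it and above 0 without.

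On the lower side, no annotated protein-coding gene was 2-fold lower in both pairs. The 2 genes that were are clone-named loci that the table lists as TEC, a class for regions whose transcription is not yet settled by experiment. RP23-103F2.2 had 146 in stimulated against 382 in resting Th2 cells and 113 in stimulated against 355 in resting CD8 cells. The other overlaps exons of Lrif1 on the same strand over 22.7% of its exon length, so its reads cannot be told apart from those of Lrif1 there. The only gene called lower in the 8-library limma fit was Ccnl1, a cyclin tied to splicing, with 1356 in stimulated against 2611 in resting Th2 cells and 646 in stimulated against 1211 in resting CD8 cells (adjusted p = 0.0442). Among the 10 genes with the smallest p in that direction were Rpl10a, Rpl29, Rplp1 and Rps19 (ribosomal proteins), Uqcr11 and Ndufb7 (respiratory chain) and Fasn (fatty acid synthase), each lower by more in Th2 than in CD8 cells. Rplp1 had 7763 in stimulated against 17238 in resting Th2 cells, and 8269 in stimulated against 11041 in resting CD8 cells. Rpl10a, Rpl29 and Rplp1 share 25.4%, 47.9% and 60.0% of their 50-base words with other loci, such as pseudogenes, so that their values are uncertain.

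Of the 75 cytosolic ribosomal protein genes, 29 were called lower and none higher, against 9.83% and 13.2% of all genes. Their median change was -0.36 (Th2) and -0.17 (CD8) with the drug, and 0.62 and 0.50 without it. Of 20 glycolysis genes, 8 were called lower and 2 higher, against 9.83% and 13.2% of all genes, with medians of -0.40 and -0.12. The sign of the glycolysis median depended on the scaling. With TMM factors and quantile normalisation the medians of both pairs stayed negative (ribosomal protein genes -0.23 and -0.24, glycolysis genes -0.25 and -0.28). Scaling each library to the sum of its ribosomal protein genes fixes the level of that list by construction, so it cannot show the list's direction. With it, the median of all genes shifted to 0.41 in Th2 and 0.18 in CD8 cells, and limma called 3219 genes higher and 25 lower. The glycolysis median of both pairs was then 0.02 against -0.26 as deposited, and relative to all genes it was -0.27 in both. Such a scaling shifts all genes of a library alike. Genes called lower had shorter transcripts, with a median of 2661 bases for the longest annotated one. This median was 3903 for genes called higher and 3381 for all genes tested, but 2419 for the 68 members. The part of transcript length or RNA quality in these calls was not tested.

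Of all genes tested, 129 were at least 2-fold higher in the Th2 pair and 121 in the CD8 pair, with 68 in both, which is 52.7% of the Th2 list and 56.2% of the CD8 list. With 1 library per condition, the difference between cell types could not be tested. Cd69 and Cd40lg changed more in Th2 than in CD8 cells (2.04 against 1.34 and 3.18 against 2.50), and Ifng, Ccl4, Egr2, Pim3 and Metrnl changed more in CD8 than in Th2 cells by 1.01 to 1.80.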

How the data were processed

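RNA-seq of poly-A selected RNA from 8 libraries (1 per condition) was compared, 4 of them with actinomycin D. The deposited values are a normalised signal per gene: the authors' methods name STAR and the mm10 build and speak of FPKM, but the values are not scaled by gene length. In every library 100% of the values were whole multiples of 1 step within 0.01, so read counts were recovered from the deposited signal for depth and for edgeR and DESeq2. The deposited GCLiPP peaks carry a score set by the authors on pooled experiments. For the counting tool, annotation and strand setting: not given in the sources used here. Columns of the authors' own fold changes were not used.

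Genes with a mean of at least 50 over the 4 libraries were tested on log2(value + 1), so fold changes of low genes are understated, with limma 3.58.1 in R 4.3.3, the cell type as a block and Benjamini-Hochberg adjustment over all genes at 0.05. Alternatives were edgeR 4.0.16, DESeq2 1.42.0, other pseudocounts, minimums and scalings, a fit of all 8 libraries and leaving out each library. A robust fit and a fit without sharing of the spread were chosen after seeing the data. p-values measure only the spread between 2 cell types. On simulated data for the stimulation change with the drug (10875 genes), limma recovered 98 to 100% of genes changed 2-fold or 4-fold, with 17 false calls. Whether these values hold for the spread in the deposited libraries was not tested.

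Named genes were the 10 with the smallest p in each direction, the 14 that rose most in both pairs, list members changed 2-fold in both pairs, up to 4 further examples per list, the 5 genes that differed most in opposite directions, and Pim3; the remaining members, such as Lrp12, Pdgfb, Icam1, Sla, Ets2, Cited2 and St3gal4, and the genes of the NF-kB list named as called were chosen after their values were seen. The members and lists were chosen with earlier results of these data known. A result that needs an item withheld from this text is not reported here.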

Additional observations from a re-analysis of the deposited data

Results flagged for a closer look

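Some genes moved in opposite directions in the Th2 and CD8 pairs with actinomycin D. Pdk4 changed by 1.43 in Th2 and -0.99 in CD8 cells, Il1r1 by 0.80 and -0.99, Timd2 by 0.62 and -0.67, and St8sia6 by 0.74 and -1.99. These genes reached the minimum through the Th2 libraries, and their CD8 changes rest on very few reads. In stimulated against resting CD8 cells, Pdk4 had 0.0 against 1.0 and Il1r1 2.0 against 4.9. Timd2 had 4.0 against 6.9 there, and St8sia6 1.0 against 6.9. Tmem37 was the reverse, with -1.09 in Th2 and 0.68 in CD8 cells, and had only 13.3 in stimulated against 29.4 in resting Th2 cells. With 1 library per condition, these differences between cell types were not tested.

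By the interaction term in limma, the stimulation change differed with and without the drug in 29 of the 68 members. It was smaller with the drug in 15 and larger in 14. Over all genes tested, 12% of the differences were positive and 12.3% negative. The members were chosen by their change with the drug, which enters the difference, so these counts are not a separate result. For Ddit4 (2.68), Aurka (2.46) and Cdc6 (2.04), given as the log2 difference with minus without, the change had opposite signs in the presence and absence of the drug in both cell types.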

How the results depend on the processing

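The counts of calls depend on how the spread is estimated. Against 1435 higher and 1069 lower, DESeq2 called 619 and 350, the 8-library fit 23 and 1, and a fit without the cell type block 0 and 0 (281 genes at an unadjusted p under 0.05), as did limma without sharing of the spread (0 and 0, with 895). edgeR called 1264 and 1309. Leaving out 1 of the 4 libraries with the drug used a fit of the rest of the 8. That fit had no term for a drug effect that differs between cell types, so it changed more than the missing library. It leaves 1 stimulated or 1 resting library with the drug, so only changes are given. Those of the 68 members lay between 0.65 and 4.02, against 1.06 to 3.36 in the main fit. Scaling to ribosomal protein genes gave 3219 and 25, with 123 and 1 at 2-fold in both pairs. The difference with minus without was then positive in 5356 and negative in 381 genes, and leaving out each library gave 0 to 2600 positive and 0 to 2636 negative. Quantile normalisation gave 48.5% of calls higher, against 57.3%. At 2-fold in both pairs, a minimum of 10 gave 90 higher and 19 lower, a minimum of 250 gave 40 and 0, the Th2 pair alone 129 and 42, the CD8 pair alone 121 and 22, 1.5-fold 239 and 30, and 4-fold 11 and 0. Of all genes tested, 100 were followed through these settings one by one, 94 of them called. Among these 100, only genes that were not called, and Junb, changed sign. They were Nr4a1 0.20 and S1pr1 0.28 (ribosomal protein scaling), S1pr1 0.00 (TMM) and Rel -0.01 (quantile and edgeR). Leaving out each library in turn added Dusp2 (-0.39 to 0.56, also -0.03), Egr3 (-0.66 to 1.14, also -0.30) and Junb (-0.69 to 0.03). It also added Nfkb2 (-0.05 to 0.51), Nr4a1 (-0.33 to 0.17, also 0.11), Rel (-0.45 to 0.48, also -0.32) and S1pr1 (-0.07 to 0.07). The cause was not tested. The cell type block is the only pairing of the libraries. No paired analysis was possible because no RNA-seq library has a replicate number to pair by, and the numbered GCLiPP experiments enter as pooled peaks.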
